A study of Mus musculus with 30 samples.

Results

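The genotype effect in interscapular brown adipose tissue (iBAT) was compared with the genotype effect in liver, in the same mice, by RNA-seq. The groups were LFABP-/- males and WT males on a C57Bl/6J background, 5 mice each, all started at 2 months of age on a high-saturated-fat diet with 45% of energy as fat and kept on it for 12 weeks before a 4 h fast. The LFABP-/- mice lack the gene in every tissue, so an effect in iBAT or liver can be local or can come from elsewhere in the animal, and these cannot be told apart. The 10 iBAT and 10 liver libraries used here belong to a series of 30 that also holds inguinal white adipose tissue (iWAT). A gene was a member if its mean value was at least 1 in both tissues, which 10194 of the 41549 genes in the table were. This mean covers both genotypes, so a gene can pass in a tissue through its values in 1 genotype. The direction of such a gene is partly set by its entry. The direction was always LFABP-/- relative to WT, and an effect is the difference of the mean log2(value + 0.5) between the genotypes. Called genes are those with an adjusted p under 0.1 from limma.

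Liver fatty acid-binding protein (LFABP, gene Fabp1) carries long-chain fatty acids and other lipids in the cytosol of hepatocytes and enterocytes, and it delivers fatty acids to nuclear receptors such as PPARα. Brown adipocytes burn fatty acids in mitochondria uncoupled by UCP1, and they also synthesize fatty acids. Hepatocytes store, oxidize, synthesize and export lipid, and secrete most plasma proteins. A genotype can therefore move a pathway in both tissues, in 1 of them, or in opposite directions, and the comparison sorts the genes by these patterns.

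The values are on the TPM scale (each library sums to between 999967.3 and 999996.4), so levels can be compared between genes, and an increase of abundant transcripts lowers the values of the rest. The reads behind a value are unknown, and all error below is the spread between mice. Between 16811 and 17680 genes were above 0 in iBAT libraries and between 16470 and 17651 in liver libraries. Transcripts of the mitochondrial genome held 53.27% to 60.12% of the value in iBAT, and in liver 12.12% to 15.1% in WT and 16.94% to 18.09% in LFABP-/- mice. Ucp1 lay between 4243.4 and 7684.1 in iBAT and between 0.3 and 12.7 in liver, and the summed level of 16 hepatocyte markers was between 132200 and 185300 in liver, so the libraries carried the markers of their labelled tissues. In bulk tissue, fewer cells of a type and less RNA per cell cannot be told apart.

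Fabp1 (ENSMUSG00000054422, chromosome 6 of GRCm38 from 71199827 to 71205023) marked the genotype in liver and not in iBAT. Its values in WT liver were 12672.1, 12697.6, 9165.5, 11860.2 and 12327.2, and in LFABP-/- liver 51.8, 13.7, 0.3, 0.6 and 0.2. In iBAT they were 1.4, 0.2, 0.4, 5.1 and 8.7 in WT mice and 0.4, 2.0, 21.2, 15.0 and 13.1 in the libraries labelled LFABP-/-. The liver groups were far apart, while the iBAT groups overlapped and the higher values were in the libraries labelled LFABP-/-, 3 of them above every WT value. The effect was -11.74 in liver (limma, adjusted p = 0.000773) and 1.48 in iBAT (adjusted p = 0.258). The labels of the iBAT libraries were used as given.

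The iBAT libraries labelled LFABP-/- held more transcripts of hepatocytes than those of WT mice. For 261 genes with a WT mean of at least 100 in liver and under 0.5% of it in WT iBAT, the median level in an iBAT library, as a percent of the level in the liver of the same mouse, was 1.26, 1.71, 1.42, 0.287 and 0.199 in LFABP-/- replicates 1 to 5. It was 0.0723, 0, 0.00286, 0.0479 and 0.1 in WT replicates 1 to 5, which the choice of these genes by their WT level keeps low. The 16 hepatocyte markers, which were not chosen that way, summed to between 54.0 and 201.1 in WT and between 271.2 and 2649 in LFABP-/- iBAT, and none of them was at 0 in every library of a group. Of these markers 15 rose in iBAT and none fell, with a median log2 fold change of 3.99. With each mouse's own liver values subtracted at the share of its iBAT library, 5 rose, 1 fell, and the median was 1.37, an alternative chosen after seeing the data. Over all genes the number of called differences was 2863 with the subtraction and 3049 without, and in iBAT 2151 genes rose and 2846 fell with it. In LFABP-/- replicates 3 to 5 Fabp1 was higher in iBAT (21.2, 15.0 and 13.1) than in the liver of the same mouse (0.3, 0.6 and 0.2), a part that values of the own liver do not remove, and its iBAT effect with the subtraction was 3.30 (adjusted p = 0.0143). Transcripts from the livers of other mice were not tested, and the subtraction does not cover them. The part of liver transcripts in each result below was not tested beyond this subtraction, which is given for each named gene whose call it ends and for each list it turns. Other markers also moved in iBAT: the sum of 20 skeletal muscle markers ran from 1780 to 46630 in WT and from 314.3 to 20070 in LFABP-/- libraries, and that of 12 white adipocyte markers from 3299 to 4887 and from 1530 to 1931. The latter fall is largely that of Cfd and Car3, described below. Their iBAT means were 1106 and 1490 in WT and 92.46 and 252.6 in LFABP-/- mice. Of the 8 white adipocyte markers tested 4 fell and 1 rose.

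**Figure D1:**
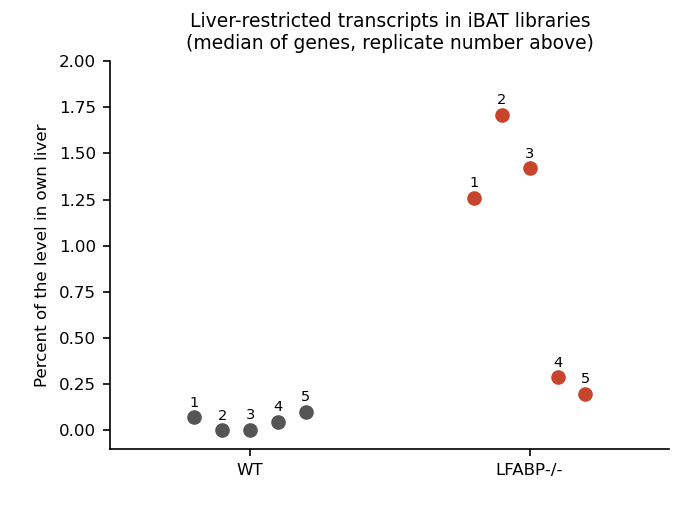
Median level of 261 liver-restricted genes in each of the 10 iBAT libraries, as a percent of the level in the liver of the same mouse, with each point labelled by its replicate. LFABP-/- replicates 1 to 3 sit between 1.26% and 1.71%, LFABP-/- replicates 4 and 5 at 0.287% and 0.199%, and every WT library at 0.1% or below.

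The genotype effect differed between brown fat and liver for 3049 of 10194 genes (29.9%), where the difference between the effects passed the test with the mouse as a block. For 2044 of them (20.1% of genes tested) the effect was higher in iBAT and for 1005 (9.86%) it was higher in liver. In iBAT alone 5041 genes (49.5%) were called, 2443 higher (24%) and 2598 lower (25.5%), and in liver alone 1863 (18.3%), 344 higher (3.37%) and 1519 lower (14.9%). The median size of an effect was 0.221 in iBAT and 0.168 in liver. Of the 3049 genes, 1941 were called in iBAT and not in liver, 456 in liver and not in iBAT, 388 in both and 264 in neither.

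Genes were counted as opposite or as moving together by different criteria. Opposite signs with a called difference were found for 2150 genes (21.1%), 1586 of them (15.6%) higher in iBAT and lower in liver and 564 (5.53%) lower in iBAT and higher in liver. Of the 2150, 288 (2.83% of genes tested) were also called in each tissue on its own, 225 higher and 63 lower in iBAT. These splits, too, depended on the scaling, as given below. Genes called in both tissues in the same direction numbered 714 (7.00%), 142 higher (1.39%) and 572 lower (5.61%), so by calls in each tissue more genes moved together than in opposite directions. The 714 are 14.2% of the iBAT calls and 38.3% of the liver calls. For 100 of these 714 the sizes differed by the test as well. The effect averaged over both tissues of a mouse was called for 3972 genes (39.0%). Over all 10194 genes the signs were the same for 57.8%, and Pearson's r between the effects was 0.155, a description across genes, which share libraries and are not independent.

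The split between higher and lower depended on the scaling, since the median effect was -0.10 in liver and -0.02 in iBAT. With median-ratio scaling within each tissue the liver median was 0.008, the liver calls split into 1156 higher and 796 lower, the genes moving together into 562 higher and 284 lower, and the called differences into 2008 higher and 1704 lower in iBAT. With quantile scaling these splits were 931 and 775, 351 and 281, and 1727 and 1890. After rescaling that leaves out mitochondrial genes and the 10 genes of highest value they were 575 and 1180, 217 and 489, and 1607 and 1398. The iBAT calls split into 3120 higher and 2294 lower with median-ratio scaling, 2540 and 2566 with quantile scaling and 2246 and 2771 after rescaling. The split of the opposite genes into those higher and those lower in iBAT was 1304 and 1108 with median-ratio scaling, 1174 and 1302 with quantile scaling, where the larger part is the other one, and 1183 and 833 after rescaling. Among those called in each tissue it was 144 and 126, 131 and 129, and 158 and 89. Both signs and the called difference were kept under all of these scalings by 1484 of the 2150 opposite genes and by 282 of the 288 called in each tissue. For the genes moving together both single-tissue calls had to be kept, as they were for 333 of the 714. The criteria differ, so these shares cannot be compared. By calls in each tissue, opposite genes numbered 270 with median-ratio scaling, 260 with quantile scaling and 247 after rescaling.

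**Figure D2:**
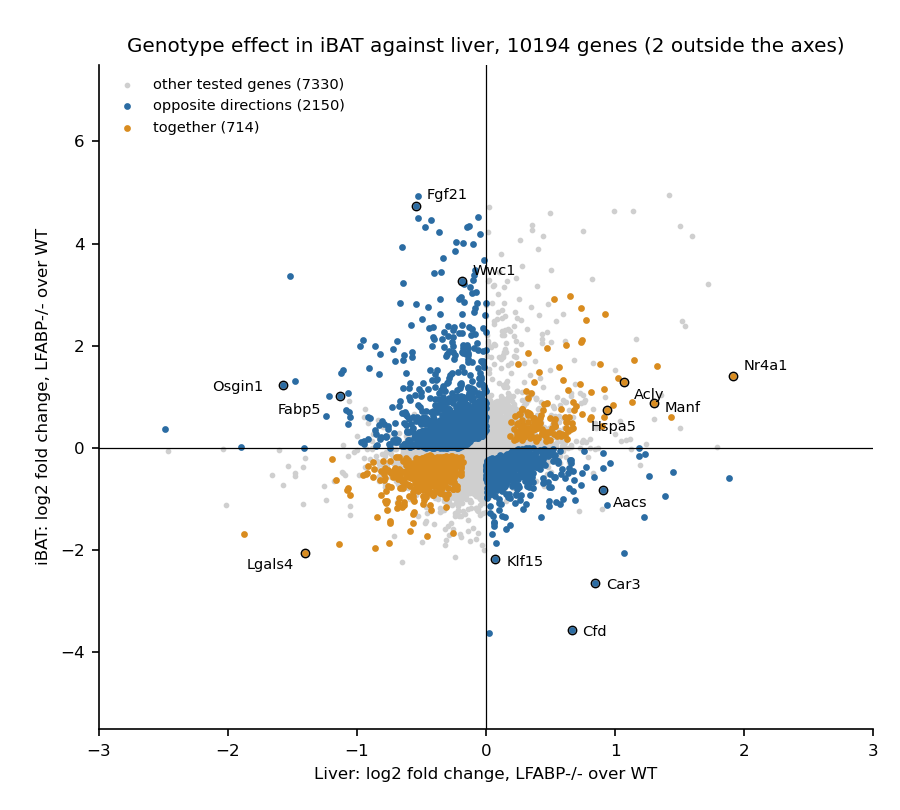
Genotype effect in liver against genotype effect in iBAT for each gene tested (log2 fold change, LFABP-/- relative to WT), with 2 genes outside the axes. Colors mark the 2150 genes with a called difference and opposite signs, the 714 called in both tissues in the same direction, and all others. Of the opposite genes 1586 lie in the quadrant with higher iBAT and lower liver values and 564 in the other, a split that is 1174 and 1302 with quantile scaling.

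Among genes higher in iBAT and lower in liver, the largest opposite effects were in a stress-response gene, another fatty acid-binding protein, secreted liver proteins and short structural RNAs. These genes were taken by the size of the smaller of the 2 effects. Osgin1 (ENSMUSG00000074063, chromosome 8 from 119434124 to 119446256), a growth inhibitor induced by oxidative stress, was 0.7, 1.3, 1.1, 1.4 and 2.1 in WT iBAT and 5.5, 3.8, 4.4, 3.5 and 2.0 in LFABP-/- iBAT. In liver it was 52.4, 59.8, 69.8, 51.6 and 89.8 in WT and 25.7, 15.7, 32.6, 18.5 and 16.4 in LFABP-/- mice. The liver groups did not overlap, and in iBAT 1 LFABP-/- value lay below the highest WT value. Osgin1 rose in iBAT (1.24 ± 0.25, SE, adjusted p = 0.00293) and fell in liver (-1.57 ± 0.21, SE, adjusted p = 0.00672), and the difference was 2.82 ± 0.20 (SE, limma, adjusted p = 4.51e-05, exact permutation p = 0.0079, the smallest that 5 against 5 mice allow).

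Fabp5, the epidermal fatty acid-binding protein, was 23.9, 27.8, 23.6, 13.2 and 23.3 in WT iBAT and 53.3, 43.5, 47.0, 50.9 and 32.2 in LFABP-/- iBAT. Its liver values were 76.6, 45.6, 67.6, 27.5 and 20.3 in WT and 20.4, 18.4, 10, 8.5 and 75.1 in LFABP-/- mice. The iBAT groups did not overlap, while in liver LFABP-/- replicate 5 lay among the highest WT values. Fabp5 rose in iBAT (1.02, adjusted p = 0.00237), its liver effect was -1.13 (adjusted p = 0.197), and the difference was 2.15 ± 0.62 (SE, limma, adjusted p = 0.0316).

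Rn7sk, the 7SK RNA that holds a transcription elongation factor inactive, was 3.7, 3.1, 4.2, 3.5 and 7.3 in WT iBAT and 10.4, 13.4, 13.9, 14.9 and 9.6 in LFABP-/- iBAT. In the liver the values were 11.4, 11.9, 23.2, 16.1 and 16.3 in WT and 7.0, 5.7, 9.8, 13.1 and 8.0 in LFABP-/- mice. The groups were apart in iBAT and overlapped in liver, and both effects were called, at 1.45 and -0.83, with a difference of 2.28 ± 0.24 (SE, limma, adjusted p = 0.000401). The signal recognition particle RNA Rn7s2, which has near-identical copies between which reads can be split, had effects of 1.99 and -0.86, and the mitochondrial methionine tRNA mt-Tm of 2.00 and -0.98, with liver adjusted p of 0.156 and 0.191. Of 10 structural RNAs 8 rose in iBAT and none fell, while in liver 2 rose and 3 fell, with medians of 0.97 and -0.57. The difference was called for 8 of the 10, all higher in iBAT. Rn7s2 and Rn7sk lack the poly(A) tail by which the RNA was selected, and they were still found in every iBAT and liver library.

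Serpina1e, an alpha-1-antitrypsin gene with near-identical paralogs, and Igfbp2, a binding protein for insulin-like growth factors, are secreted by liver. Serpina1e was 0.7, 0.2, 0.2, 0.9 and 7.4 in WT iBAT, and 39.7, 16.2, 15.7, 8.9 and 6.8 in LFABP-/- iBAT. Its mean in LFABP-/- iBAT was 1.11% of that in LFABP-/- liver, and that of Igfbp2 0.81%. The medians of the liver-restricted genes ran from 0.199% to 1.71% in LFABP-/- iBAT libraries. In liver Serpina1e fell by 1.52 (adjusted p = 0.0883) and Igfbp2 by 0.95 (adjusted p = 0.0412) on the log2 scale. With liver transcripts subtracted, the iBAT effect of Serpina1e was 0.72 (adjusted p = 0.577) with a difference of 2.24 (adjusted p = 0.244), and the iBAT effect of Igfbp2 was 0.35 (adjusted p = 0.369) with a difference of 1.30 (adjusted p = 0.0798). Osgin1 kept its iBAT effect under the subtraction (1.19, adjusted p = 0.00281). Where a replicate is left out, here and below, both the iBAT and the liver library of that mouse were removed and the filter was applied again. The liver call of Igfbp2 was lost without WT replicate 2 (adjusted p = 0.108), and that of Serpina1e without any 1 of WT replicates 2, 3 and 5 and LFABP-/- replicates 2 to 5 (adjusted p from 0.106 to 0.207).

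Among genes lower in iBAT and higher in liver were transcripts that adipocytes make in large amounts and transcription regulators of the clock. Car3 (ENSMUSG00000027559, chromosome 3 from 14863512 to 14872523), a carbonic anhydrase abundant in adipose tissue, muscle and liver, was 1142.1, 1079.0, 1439.0, 1973.1 and 1817.7 in WT iBAT and 143.3, 166.1, 218.5, 305.1 and 429.9 in LFABP-/- iBAT. Liver values were 968.0, 816.2, 733.6, 1073.4 and 538.2 in WT and 1208.0, 993.6, 2141.9, 1692.5 and 1449.3 in LFABP-/- mice. The iBAT groups were apart, and in liver 1 LFABP-/- value lay within the WT range. Car3 fell in iBAT (-2.63, adjusted p = 0.000151) and rose in liver (0.85, adjusted p = 0.0388), with a difference of -3.48 ± 0.33 (SE, limma, adjusted p = 0.00022).

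Cfd, the complement factor adipsin secreted by adipocytes, was 698.4, 1020.8, 1141.2, 1060.1 and 1607.4 in WT iBAT and 60.1, 80.8, 103.8, 114.4 and 103.2 in LFABP-/- iBAT, with no overlap. In liver, where its level was low, it was 9.3 to 25.6 in WT and 12.5 to 75.9 in LFABP-/- mice. It fell in iBAT (-3.56, adjusted p = 1.26e-05), the liver effect was 0.66 (adjusted p = 0.334), and the difference was -4.22 ± 0.43 (SE, limma, adjusted p = 0.000294). Car3 and Cfd are both on the list of white adipocyte markers, of which 4 of 8 tested fell and 1 rose in iBAT.

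Aacs, which activates the ketone body acetoacetate for lipid synthesis, was 81.3, 85.5, 95.3, 90.4 and 102.5 in WT iBAT and 73.1, 31.5, 55.1, 42.7 and 63.9 in LFABP-/- iBAT. The liver libraries gave 60.1, 53.5, 39.3, 56.2 and 54.0 in WT and 103.2, 51.9, 105.0, 106.7 and 149.3 in LFABP-/- mice. The iBAT groups did not overlap, and in liver LFABP-/- replicate 2 lay within the WT range. Aacs fell in iBAT (-0.82, adjusted p = 0.00722) and rose in liver (0.90, adjusted p = 0.0348), with a difference of -1.73 ± 0.19 (SE, limma, adjusted p = 0.000469).

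Klf10, a zinc finger repressor induced by TGFβ, was 13, 9.4, 18.3, 13.5 and 10.2 in WT iBAT and 5.7, 5.7, 9.2, 5.1 and 4.9 in LFABP-/- iBAT. In liver it was 10.3, 12.4, 8.2, 13.2 and 14.5 in WT and 16.2, 13.1, 34.6, 17.7 and 18.5 in LFABP-/- mice. The iBAT groups did not overlap, and in liver 1 LFABP-/- value lay within the WT range. The effects were -1.01 and 0.69, both called, and the difference was -1.71 ± 0.28 (SE, limma, adjusted p = 0.00281). Bhlhe40 and Ciart, repressors of the circadian clock, had effects of -1.0 and -0.62 in iBAT and of 0.60 and 0.68 in liver, all called, with differences of -1.60 (adjusted p = 0.0115) and -1.30 (adjusted p = 0.000934). Pnldc1, an exonuclease that trims small RNAs, had -1.11 and 0.94, both called. Fcor, a corepressor of FOXO1 made in adipose tissue, had -0.85 (adjusted p = 0.002) and 0.67 (adjusted p = 0.223).

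Some of these single-tissue calls lay near the threshold and were lost when any 1 of several mice was left out. The liver call was lost for Klf10 on leaving out WT replicates 1, 2 or 3 or LFABP-/- replicates 4 or 5 (adjusted p from 0.122 to 0.146), for Pnldc1 without WT replicate 2 or LFABP-/- replicates 2 or 4 (0.11 to 0.131), and for Bhlhe40 without WT replicate 2 or LFABP-/- replicates 1, 3 or 4 (0.108 to 0.156). For Ciart the liver call was lost on leaving out WT replicates 2, 3 or 5 or LFABP-/- replicates 2 to 5 (0.124 to 0.205), and the iBAT call on leaving out WT replicates 1, 4 or 5 or LFABP-/- replicates 1, 2 or 3 (0.108 to 0.189). The called differences of these genes were kept in each case, and none of the 16 genes taken as opposite changed the sign of an effect under a scaling.

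**Figure D3:**
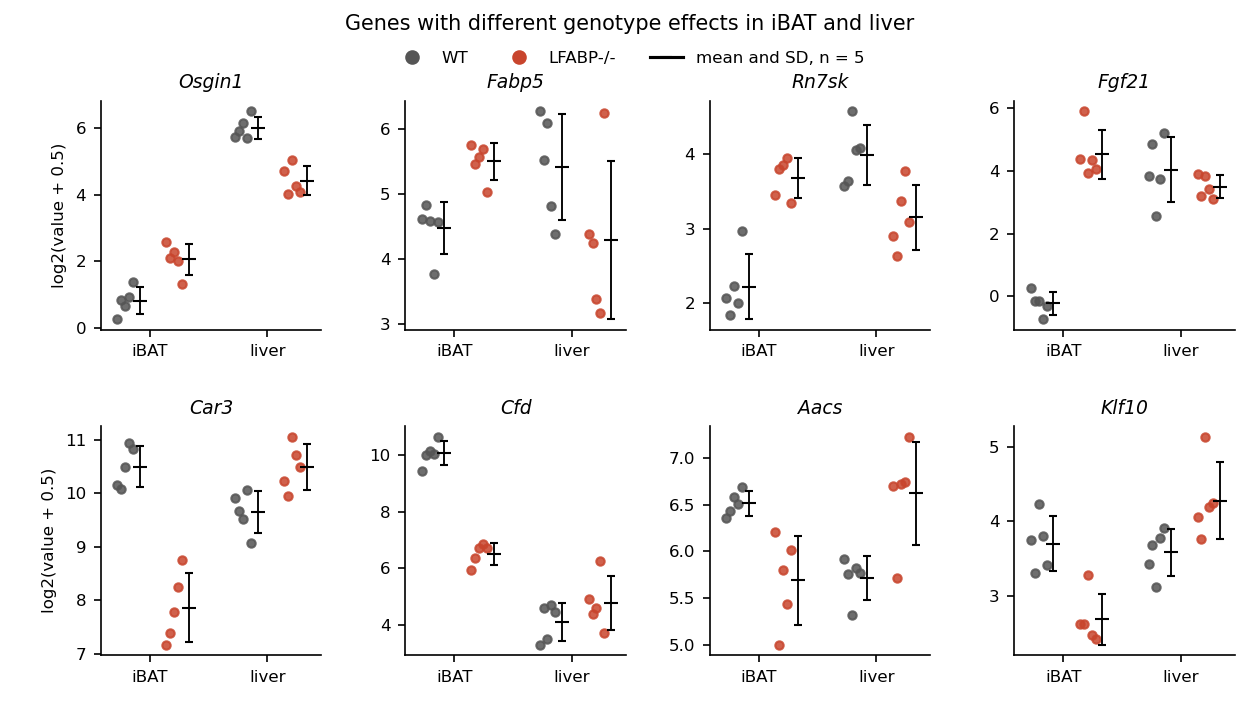
Values of 8 genes with a called difference and effects of opposite sign, as log2(value + 0.5) per library, with the mean and SD of 5 libraries per group. Osgin1, Fabp5, Rn7sk and Fgf21 lie higher in LFABP-/- than in WT iBAT and lower on average in liver, and Car3, Cfd, Aacs and Klf10 the other way round.

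Genes that moved together included an immediate early gene, a chaperone-related factor, an enzyme of lipid synthesis and genes that differ between C57BL/6 substrains. Wdfy1 (ENSMUSG00000073643, chromosome 1 from 79702262 to 79776143), an endosomal adaptor, was 3.3, 2.9, 2.7, 3.1 and 2.6 in WT iBAT and 10.4, 11.5, 9.7, 9.3 and 8.5 in LFABP-/- iBAT. Its liver values were 3.7, 4.6, 4.1, 5.0 and 5.2 in WT and 11.7, 12.5, 11.2, 12.2 and 12.4 in LFABP-/- mice. The genotypes were apart in both tissues. The effects were 1.60 in iBAT (adjusted p = 5.48e-06) and 1.32 in liver (adjusted p = 0.000101), and their difference of 0.27 ± 0.14 (SE) was not called (adjusted p = 0.183). Nnt, the mitochondrial transhydrogenase that makes NADPH, rose in liver by 1.13 (adjusted p = 0.00672) and in iBAT by 0.90 (adjusted p = 0.0769), the latter at values of 0.6 to 5.3. Wdfy1 and Nnt are on the list of substrain genes, of which 4 of 4 tested rose in iBAT and 2 rose in liver, so a genotype effect and a difference in genetic background between the groups cannot be told apart for them. The same holds for the other two on this list, the nucleotidase gene Entpd4 and the gene of the insulin-degrading enzyme, Ide, which rose in iBAT by 0.47 and 0.38 with liver effects of 0.07 (adjusted p = 0.549) and -0.08 (adjusted p = 0.479). The iBAT effect of Nnt with liver transcripts subtracted was 0.69 (adjusted p = 0.178), so it was then not called in both tissues. Its iBAT call was also lost on leaving out WT replicates 1 or 2 or LFABP-/- replicates 2, 3 or 5 (adjusted p from 0.136 to 0.156).

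Nr4a1, a nuclear receptor induced within minutes of a stimulus, was 12.9, 11.8, 39.0, 38.8 and 92 in WT iBAT and 75.8, 76.5, 78.1, 136.5 and 47.7 in LFABP-/- iBAT. In the liver the values were 9.4, 5.8, 9.9, 27.5 and 12.4 in WT and 97.4, 22.6, 63.8, 55.1 and 21.6 in LFABP-/- mice. The groups overlapped in both tissues, with effects of 1.40 (adjusted p = 0.0499) and 1.92 (adjusted p = 0.0288). The phosphatase gene Dusp1, also an immediate early gene, rose by 1.36 and 1.02. Of 24 immediate early genes tested, 8 rose and 2 fell in iBAT, 6 rose and none fell in liver, and 3 rose in both, and the difference was called for 6. Under each of the other scalings 9 rose in liver. The iBAT call of Nr4a1 was lost without WT replicate 1 (adjusted p = 0.109), WT replicate 2 (0.108) or LFABP-/- replicate 4 (0.106).

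Manf, a factor secreted upon endoplasmic reticulum stress, was 12.7, 11.1, 10.5, 11 and 12.0 in WT iBAT and 26.2, 23.6, 19.6, 19.4 and 19.1 in LFABP-/- iBAT. Liver values were 39.3, 18.6, 25.9, 52.9 and 33.7 in WT and 122.6, 56.2, 59.9, 84.3 and 92.5 in LFABP-/- mice. No group overlapped, and the effects were 0.88 (adjusted p = 0.000145) and 1.30 (adjusted p = 0.0196). Acly, which makes cytosolic acetyl-CoA from citrate, was 245.1 to 534.3 in WT and 738.8 to 1512.0 in LFABP-/- iBAT, and 105.8 to 234.6 in WT and 170.9 to 610.2 in LFABP-/- liver. It rose in both, by 1.28 and 1.07, and the difference was not called (adjusted p = 0.749). The liver call of Acly was lost on leaving out WT replicates 2 or 3 or LFABP-/- replicates 3, 4 or 5 (adjusted p from 0.11 to 0.158). Cela1, a serine protease of the elastase family, rose by 1.72 and 1.14. The major urinary protein gene Mup21, one of a family of near-identical copies, rose by 2.62 and 0.92, and in LFABP-/- iBAT it stood at 1.04% of its liver level. With liver transcripts subtracted its iBAT effect was 0.44 (adjusted p = 0.407). The liver call of Mup21 was lost without any single library other than WT replicate 3 and LFABP-/- replicate 4 (adjusted p from 0.101 to 0.201).

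Of the genes that fell in both tissues, Lgals4 and Fbxo31 fell more in iBAT. Lgals4 (ENSMUSG00000053964, chromosome 7 from 28833854 to 28841708), which encodes galectin 4, was 15.1, 22.2, 17.9, 20.2 and 14.5 in WT iBAT and 4.3, 3.4, 3.7, 4.6 and 3.7 in LFABP-/- iBAT. The liver libraries gave 19.2, 24.9, 18, 21.3 and 33.5 in WT and 12.6, 8.3, 5.9, 6.7 and 9.5 in LFABP-/- mice. The genotypes were apart in both tissues, with effects of -2.05 (adjusted p = 1.02e-05) and -1.40 (adjusted p = 0.00823) and a difference of -0.64 (adjusted p = 0.0918). The called difference of Lgals4 was lost on leaving out WT replicates 1 to 4 or LFABP-/- replicates 1, 2 or 5 (adjusted p from 0.135 to 0.189). Fbxo31, a subunit of a ubiquitin ligase, was 42.4, 36.7, 60.4, 75.8 and 48.5 in WT and 11.1, 15.0, 13.7, 10.7 and 19.1 in LFABP-/- iBAT, and 45.4 to 83.2 and 29.9 to 60.0 in liver. The iBAT groups were apart and the liver groups overlapped, with effects of -1.87 and -0.75 and a difference of -1.12 ± 0.29 (SE, limma, adjusted p = 0.0208). Without WT replicate 2 the liver call of Fbxo31 was lost (adjusted p = 0.107).

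For the other genes taken as lower in both tissues the difference was not called. Frat1, an activator of Wnt signalling, was 10.3 to 11.9 in WT and 3.2 to 5.2 in LFABP-/- iBAT, and 7.4 to 10.8 in WT and 3.5 to 6.6 in LFABP-/- liver, with no overlap in either tissue and effects of -1.18 and -0.69. Htra3, a secreted serine protease, had effects of -0.81 and -1.07, the cell cycle inhibitor Cdkn2c of -0.84 and -0.78, and Tmem140 of -1.36 and -0.84. Acot1, a cytosolic acyl-CoA thioesterase induced by PPARα and a member of a family of similar genes, had -0.92 and -1.06. Zbtb11os1, a transcript opposite to Zbtb11 whose reads cannot be told from those of its partner without strand, had -0.74 and -0.76. The liver call was lost for Tmem140 without WT replicate 2 or LFABP-/- replicates 1, 4 or 5 (adjusted p from 0.11 to 0.152), for Cdkn2c without WT replicate 2 or LFABP-/- replicate 5 (0.126 and 0.109), and for Acot1 without any single library other than WT replicate 3 and LFABP-/- replicates 2 and 3 (0.103 to 0.186). The whole count of genes moving together fell from 714 to 298 without WT replicate 2, to 419 without LFABP-/- replicate 4 and to 382 without LFABP-/- replicate 5, and the liver calls from 1863 to 748, 1044 and 1004.

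**Figure D4:**
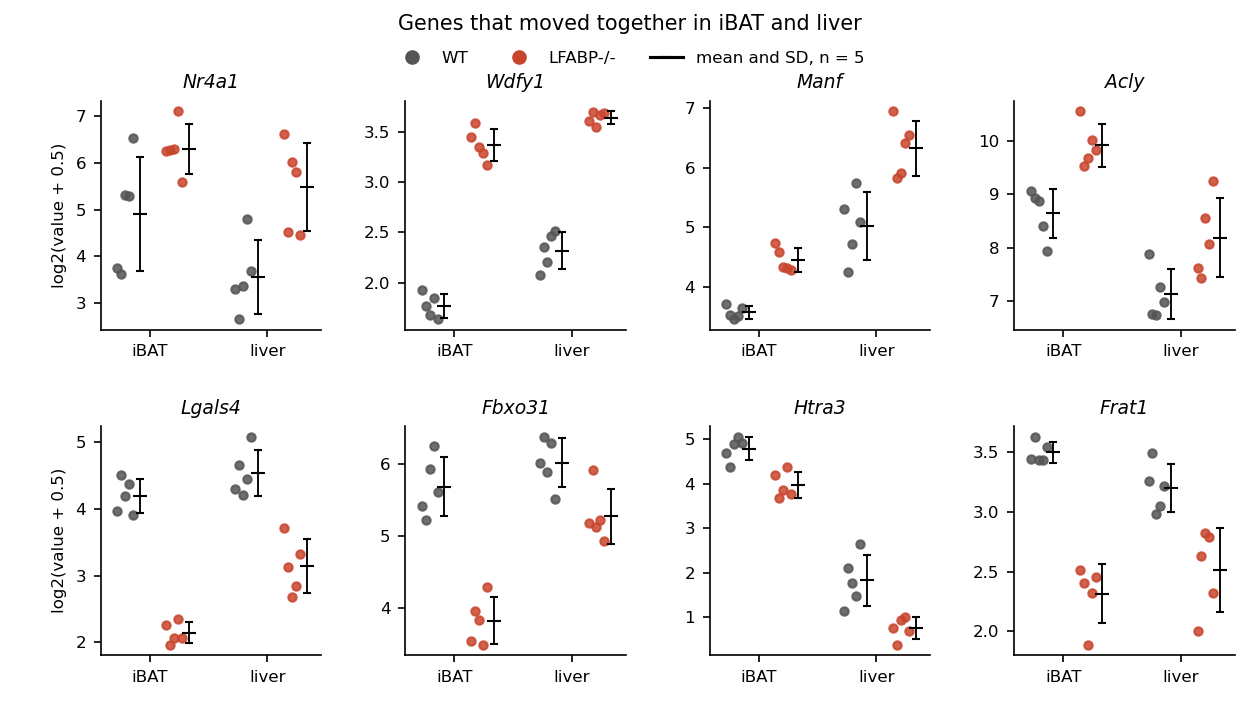
Values of 8 genes called in the same direction in both tissues, as log2(value + 0.5) per library, with the mean and SD of 5 libraries per group. Nr4a1, Wdfy1, Manf and Acly lie higher in LFABP-/- mice in both tissues, and Lgals4, Fbxo31, Htra3 and Frat1 lower.

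Several genes with a called difference were called in 1 tissue with an effect more than 3 times the size of that in the other. Among those of iBAT with the smallest p of the difference were Wwc1, a scaffold of the Hippo pathway, Acot12, an acetyl-CoA hydrolase of hepatocytes, and Cldn1, a tight junction protein. Wwc1 was 0.1, 0.1, 0.1, 0.2 and 0.0 in WT iBAT and 5.9, 6.3, 5.3, 3.6 and 5.6 in LFABP-/- iBAT, with no overlap. In liver it was 29.4 to 40.8 in WT and 24.9 to 41.4 in LFABP-/- mice, and the difference was 3.45 ± 0.20 (SE, limma, adjusted p = 1.87e-05). Acot12 was 0.3 to 0.8 and 3.3 to 7.7 in iBAT, and Cldn1 0.4 to 0.9 and 5.1 to 15.4, so the genotypes were apart for both. The WT iBAT means of Wwc1, Acot12 and Cldn1 were 0.1, 0.5 and 0.66, so they passed the filter through the LFABP-/- libraries. In LFABP-/- iBAT these genes stood at 16.5% (Wwc1), 6.65% (Acot12) and 53.4% (Cldn1) of their liver level. The highest library median of the liver-restricted genes was 1.71%, and single genes among them can lie above it. With liver transcripts subtracted the iBAT effects were 3.21, 2.15 and 2.9, all called. The part of liver transcripts in these effects was not tested beyond this subtraction, which does not cover the livers of other mice. The deubiquitinase gene Usp10 rose in iBAT by 1.18, with a liver effect of -0.12 (adjusted p = 0.377). The nuclear protein gene Akirin1 rose in iBAT by 1.35, with a liver effect of -0.04 (adjusted p = 0.834) whose sign flips under other scalings. Rhod, a small GTPase of endosomes, rose in iBAT by 1.88 and fell in liver by 0.57, a liver call lost without WT replicate 2 (adjusted p = 0.105).

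In liver, Sco2, a copper chaperone for cytochrome oxidase, was between 39.1 and 78.4 in WT and between 95.2 and 140.6 in LFABP-/- mice, while in iBAT it was 17 to 33.8 and 20.5 to 28.3. The liver groups were apart and the iBAT groups overlapped, and the effects were 1.24 (adjusted p = 0.00823) and 0.07 (adjusted p = 0.751). Thbd, the thrombin receptor thrombomodulin, lay in liver between 1.4 and 3.0 in WT and between 3.5 and 4.3 in LFABP-/- mice, and Papss1, which makes the sulfate donor of sulfotransferases, between 7.7 and 12.3 and between 3.0 and 5.6. The genotypes were apart in liver for both, their liver effects of 0.91 and -1.19 were called, and those in iBAT were -0.09 (adjusted p = 0.267) and -0.21 (adjusted p = 0.0997). The unconventional myosin gene Myo18a and the ubiquitin ligase gene Ubr4 fell in liver by 0.78 and 0.61, with iBAT effects of 0.23 (adjusted p = 0.0646) and 0.06 (adjusted p = 0.694). The iBAT calls of Myo18a and Papss1 were lost without most single libraries, that is on leaving out WT replicates 1, 2 or 3 or LFABP-/- replicates 1, 2, 3 or 5 for both and without WT replicate 4 for Papss1 (adjusted p from 0.1 to 0.206).

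Lists of genes were then described by role. Their counts stand beside those of all genes tested, of which 20.1% had a called difference with the higher effect in iBAT and 9.86% with the lower. Of all genes 24% rose and 25.5% fell in iBAT, and 3.37% rose and 14.9% fell in liver. ATF4 is the transcription factor that mitochondrial and amino acid stress induce through the integrated stress response. Of 18 targets tested, 15 rose and 1 fell in iBAT, 1 rose and none fell in liver, and the difference was called higher in iBAT for 12 and lower for 1. The medians were 0.79 in iBAT and 0.09 in liver, and the number of differences called higher in iBAT was 11 under each other scaling and under the subtraction of liver transcripts. The list held 24 symbols, and the rest did not pass the filter. Fgf21 passed through the LFABP-/- libraries, with iBAT means of 0.38 in WT and 26.1 in LFABP-/- mice. The count that rose in iBAT is therefore partly set by entry.

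Fgf21 (ENSMUSG00000030827, chromosome 7 from 45613886 to 45615490), a hormone of liver and adipose tissue, was 0.7, 0.4, 0.4, 0.1 and 0.3 in WT iBAT and 20.2, 59.4, 14.7, 20 and 16.2 in LFABP-/- iBAT. Its liver values were 13.7, 28.5, 5.4, 13 and 36.1 in WT and 14.6, 8.6, 13.8, 10.3 and 8.1 in LFABP-/- mice. The iBAT groups did not overlap, and every LFABP-/- iBAT value lay above 8 of the 10 liver values. The effects were 4.74 in iBAT (adjusted p = 2.1e-05) and -0.54 in liver (adjusted p = 0.41), with a difference of 5.29 ± 0.58 (SE, limma, adjusted p = 0.000462). Mthfd2, a mitochondrial folate enzyme, was 0.9 to 1.4 in WT and 9.2 to 22.8 in LFABP-/- iBAT, and 0.6 to 4.2 and 0.8 to 1.4 in liver. Atf4 itself was 51.9 to 64.9 and 138.5 to 206.5 in iBAT, and 51.8 to 82.9 and 49.8 to 78.5 in liver. Both were apart in iBAT and overlapped in liver, with differences of 3.15 (adjusted p = 0.00173) and 1.45 (adjusted p = 0.00172).

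Because a transcription factor acts through short elements near the start of a gene, the promoters of the ATF4 targets, endoplasmic reticulum chaperones and clock genes were searched on both strands, in the RefSeq promoters of GRCm38.p6 from 250 bases before to 50 after each start. The letters TTGCATCA, an element for C/EBP and ATF factors, were found in 5 of 22 ATF4 targets with a promoter (22.7%) and in 279 of 27025 promoters in all (1.03%). Of the 3 tested targets with these letters, 1 rose and 1 fell in iBAT (median -0.69), and of the 14 without them 13 rose and none fell (median 0.86). The promoter stretch of Fgf21 is shown because Fgf21 had the largest difference of the named ATF4 targets. It lies on the minus strand at chr7:45615510-45615654, and the capitals mark TTGCATCA and an E-box, CACGTG.
Fgf21: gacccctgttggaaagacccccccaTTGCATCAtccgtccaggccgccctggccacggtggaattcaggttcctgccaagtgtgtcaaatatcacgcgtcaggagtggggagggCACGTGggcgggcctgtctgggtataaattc
A match describes the letters and not a bound site.

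Endoplasmic reticulum (ER) chaperones, which fold secreted proteins and are induced by the unfolded protein response, more often had the higher effect in liver. Of 21 tested, 5 rose and 2 fell in iBAT, 7 rose and 2 fell in liver, and the difference was called for 8, with 7 of them higher in liver. The medians were 0.02 in iBAT and 0.34 in liver. The subtraction of liver transcripts gave 5 that rose and 5 that fell in iBAT, and with median-ratio scaling 10 rose and none fell in liver. Hspa5, the abundant ER chaperone BiP, rose in both tissues: its values were 94.6, 90.8, 82.4, 92 and 87.3 in WT and 178.0, 151.9, 142.5, 151.3 and 131.5 in LFABP-/- iBAT, and 307.4, 192.4, 211.9, 410.8 and 276.4 in WT and 837.0, 420.2, 421.2, 474.5 and 532.0 in LFABP-/- liver. The genotypes did not overlap in either tissue, and the effects of 0.75 and 0.94 did not differ by the test (adjusted p = 0.537). Hsp90b1, the ER member of the HSP90 family, had effects of -0.06 (adjusted p = 0.652) and 0.50 (adjusted p = 0.0507) with a difference of -0.56 (adjusted p = 0.0309). Creld2, a secreted ER stress factor, was 12.4 to 14.2 in WT and 11.7 to 20.3 in LFABP-/- iBAT, and 34.8 to 129.4 and 83 to 304.9 in liver, with effects of 0.14 and 1.05 and a difference of -0.91 (adjusted p = 0.0639). The disulfide isomerase gene Pdia4 had effects of -0.14 and 0.52, neither of them called, with a difference of -0.65 (adjusted p = 0.0249), and its iBAT effect was called with liver transcripts subtracted (-0.31, adjusted p = 0.00727). Atf6, a sensor of unfolded protein, fell in liver by 0.33, and its iBAT effect was 0.12 (adjusted p = 0.385).

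The liver calls of several of these genes were lost when any 1 of several mice was left out. That of Hsp90b1 was lost without WT replicate 2 or LFABP-/- replicates 1, 4 or 5 (adjusted p from 0.102 to 0.128), of Atf6 without WT replicate 2 or LFABP-/- replicates 4 or 5 (0.124 to 0.151), and of Creld2 without any single library other than WT replicate 4 and LFABP-/- replicate 3 (0.108 to 0.211). The called difference of Creld2 was lost on leaving out WT replicates 2 or 3 or LFABP-/- replicates 1 or 5 (0.106 to 0.139). Hspa5 kept both calls with each mouse left out.

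The ER stress response element, which reads CCAAT, 9 bases of any kind and CCACG, was found in 8 of 18 ER chaperones with a promoter (44.4%) and in 37 of 27025 promoters in all (0.137%). Of the 8, 5 rose in liver and 2 in iBAT and none fell. Of the 10 without it 1 rose and 1 fell in liver and 2 rose and 2 fell in iBAT. The difference was called lower in iBAT for 3 of the 8 and for 3 of the 10. The median difference was -0.36 with the element and -0.305 without it, and the liver medians were 0.454 and 0.328. The stretches of Hspa5, which rose in both tissues, and Creld2, with a called effect in liver, are shown with the element in capitals, on the plus strand at chr2:34772000-34772068 and chr15:88819495-88819563. In Creld2 the element reads on the other strand.
Hspa5: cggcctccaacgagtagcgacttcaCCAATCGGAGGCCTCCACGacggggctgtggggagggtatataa
Creld2: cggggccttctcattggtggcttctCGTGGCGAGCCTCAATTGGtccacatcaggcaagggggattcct
The counts of genes with and without the element were not tested against each other.

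Genes of the circadian clock fell more often than they rose in iBAT. The clock is a loop in which activators switch on the Per and Cry repressors and PAR bZIP factors act on D-box elements. Of 19 clock genes tested, 4 rose and 11 fell in iBAT, 3 rose and 1 fell in liver, and the difference was called for 15, with 10 of them lower in iBAT. Of all genes tested 49.5% were called in iBAT and 18.3% in liver. The medians were -0.62 and -0.21. Per3 was 10.4, 8.4, 10.6, 15.1 and 10.2 in WT and 1.4, 2.2, 2.9, 3.2 and 3.4 in LFABP-/- iBAT, and 6.5 to 12.8 in WT and 3.9 to 10.3 in LFABP-/- liver. It was apart in iBAT and overlapped in liver, with effects of -1.90 and -0.32 (adjusted p = 0.406) and a difference of -1.58 ± 0.18 (SE, limma, adjusted p = 0.000553). Nfil3, a repressor at D-boxes, rose in iBAT by 1.58, its liver effect was -0.18 (adjusted p = 0.534), and the difference was 1.76 (adjusted p = 0.000252). Under each other scaling and under the subtraction of liver transcripts 10 differences were called lower in iBAT.

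The E-box CACGTG was found in 5 of 17 clock genes with a promoter (29.4%) and in 2187 of 27025 promoters (8.09%), and the D-box TTATGTAA in 1 clock gene, Per3, and in 299 promoters (1.11%). Of the 5 clock genes with an E-box 1 rose and 3 fell in iBAT, and of the 10 tested without it 2 rose and 5 fell. Per3, which fell in iBAT, and Ciart, with opposite effects, are shown on the minus strand at chr4:151044791-151044895 and chr3:95882242-95882369, with D-boxes in capitals in Per3 and E-boxes in capitals in Ciart.
Per3: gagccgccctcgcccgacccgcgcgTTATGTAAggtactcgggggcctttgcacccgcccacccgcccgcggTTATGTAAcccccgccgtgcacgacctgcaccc
Ciart: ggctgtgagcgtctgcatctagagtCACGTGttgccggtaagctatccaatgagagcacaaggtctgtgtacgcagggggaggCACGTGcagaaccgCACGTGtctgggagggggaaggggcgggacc
Both elements occur more than once in these stretches.

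Genes induced by glucocorticoids fell more often than they rose in iBAT. Of 17 tested, 3 rose and 7 fell in iBAT, 3 rose and none fell in liver, and the difference was called for 7, with 6 of them lower in iBAT. The medians were -0.47 and 0.16. After subtraction of liver transcripts 1 rose and 7 fell in iBAT. Klf15, a glucocorticoid-induced regulator of amino acid breakdown, was 28.9, 36.9, 31.8, 57.1 and 45.1 in WT and 5.6, 8.0, 7.8, 6.5 and 15.6 in LFABP-/- iBAT. In the liver the values were 149.9 to 243.3 in WT and 172.1 to 219.5 in LFABP-/- mice. The genotypes were apart in iBAT, and the LFABP-/- liver values lay within the WT range, with a difference of -2.25 ± 0.21 (SE, limma, adjusted p = 0.000219). Klf9 fell in iBAT by 0.86 and had -0.05 in liver (adjusted p = 0.807). Pik3r1, a regulatory subunit of phosphoinositide 3-kinase, fell in iBAT by 0.93 and rose in liver by 0.34, a liver call lost on leaving out WT replicates 2 or 5 or LFABP-/- replicates 1, 4 or 5 (adjusted p from 0.106 to 0.164).

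Genes of lipid synthesis rose more often than they fell in iBAT. Of 16 genes of fatty acid synthesis, 10 rose and 2 fell in iBAT, 2 rose and none fell in liver, where 24% and 3.37% of all genes rose in iBAT and in liver, and the difference was called higher in iBAT for 7 and lower for 1. Scd2, a stearoyl-CoA desaturase, was 46.2, 22.1, 29.3, 23.1 and 18.9 in WT and 213.8, 129.9, 151.2, 104.0 and 133.5 in LFABP-/- iBAT, and 3.0 to 9.5 in WT and 2.3 to 3.8 in LFABP-/- liver. The iBAT groups did not overlap and the liver groups did, with effects of 2.40 and -0.58 (adjusted p = 0.206) and a difference of 2.98 ± 0.49 (SE, limma, adjusted p = 0.00279). Scd1, the main desaturase of liver, was 5487.1 to 14033.3 in WT and 11679.8 to 22588.0 in LFABP-/- iBAT, and 4335.8 to 8298.8 in WT and 2944.4 to 7254.3 in LFABP-/- liver. The groups overlapped in both tissues, with effects of 0.62 (adjusted p = 0.0869) and -0.57 (adjusted p = 0.144) and a difference of 1.18 (adjusted p = 0.0187). The iBAT call of Scd1 was lost on leaving out WT replicates 4 or 5 or LFABP-/- replicates 1 or 3 (adjusted p from 0.142 to 0.188). Fads2, which desaturates polyunsaturated fatty acids, rose in iBAT by 1.74 at 1.22% of its liver level, and with liver transcripts subtracted the iBAT effect was 0.08 (adjusted p = 0.9) and the difference 0.33 (adjusted p = 0.682). With this subtraction 8 genes of the list rose in iBAT and 4 differences were called higher in iBAT.

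Of 20 genes of cholesterol synthesis, 13 rose and none fell in iBAT, 1 rose and 1 fell in liver, and the difference was called for 4, all higher in iBAT, with medians of 0.51 and 0.13. Hsd17b7 and Nsdhl, enzymes that act on the sterol after lanosterol, rose in iBAT by 0.99 and 0.80 and had liver effects of 0.39 (adjusted p = 0.106) and 0.13 (adjusted p = 0.684). The called difference was lost for Hsd17b7 without WT replicates 1, 3 or 4 or LFABP-/- replicate 3 (adjusted p from 0.101 to 0.112) and for Nsdhl on leaving out WT replicates 1 or 4 or LFABP-/- replicates 1 to 4 (0.113 to 0.132). Of 12 genes of sterol control and uptake, 4 rose and 2 fell in iBAT and 2 fell in liver.

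Of 21 genes of fatty acid oxidation, 6 rose and 1 fell in iBAT, 1 rose and 3 fell in liver, and none was called in both in the same direction, beside 7.00% of all genes. With median-ratio scaling 10 rose in iBAT, 4 rose in liver and 3 rose in both. Cpt1a, the carnitine palmitoyltransferase of liver, was 4.6, 6.2, 4.5, 4.7 and 7.5 in WT and 8.5, 13, 8.5, 7.9 and 5.5 in LFABP-/- iBAT. Liver values were 243.9, 226.1, 203.9, 166.7 and 206.0 in WT and 147.3, 182.2, 155.3, 148.8 and 110.0 in LFABP-/- mice. The groups overlapped in both tissues, and it rose in iBAT (0.59, adjusted p = 0.0383) and fell in liver (-0.50, adjusted p = 0.0436), with a difference of 1.09 ± 0.16 (SE, limma, adjusted p = 0.00184). With liver transcripts subtracted the iBAT effect was 0.37 (adjusted p = 0.118) and the difference 0.86 (adjusted p = 0.00457). Ppara, the nuclear receptor that induces these genes, had 0.27 in iBAT (adjusted p = 0.241) and fell in liver by 0.85 (adjusted p = 0.051), with a difference of 1.12 (adjusted p = 0.0044). Slc25a20, the mitochondrial carnitine carrier, rose in iBAT by 0.37 and had -0.06 in liver (adjusted p = 0.714). The liver call was lost for Cpt1a without WT replicate 2 (adjusted p = 0.116) and for Ppara without WT replicate 2 (0.131) or LFABP-/- replicate 4 (0.105).

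Of 24 peroxisome genes, 12 rose and 3 fell in iBAT, 1 rose and 1 fell in liver, and the difference was called higher in iBAT for 9 and lower for 2. Acox2, which oxidizes branched fatty acids and bile acid precursors, was 0.4 to 0.8 in WT and 1.6 to 4.7 in LFABP-/- iBAT, and 76.9 to 100.2 and 79.5 to 100.5 in liver. The iBAT groups were apart, the LFABP-/- iBAT mean was 3.52% of that in liver, and with liver transcripts subtracted the iBAT effect was 1.38 (adjusted p = 0.000383) against 1.71 before. The WT iBAT mean of Acox2 was 0.56, so it passed the filter through the LFABP-/- libraries. Pex2, a membrane protein for peroxisomal import, fell in iBAT by 0.26 and rose in liver by 0.35, a liver call lost without WT replicate 2 (adjusted p = 0.12). Of 21 genes of fatty acid uptake and activation, 11 rose and 4 fell in iBAT and 2 fell in liver.

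Where the effects differed for genes of oxidative phosphorylation, they were lower in iBAT than in liver, with 1 gene of complexes II to V as an exception after quantile scaling. Of 37 complex I subunits none had a higher and 10 a lower effect in iBAT by the test, of 39 subunits of complexes II to V none and 14, and of 13 genes of the mitochondrial genome none and 7. In liver 3, 4 and 11 of these rose and none fell, and in iBAT 4, 6 and 2 rose and 7, 11 and 2 fell. With median-ratio scaling 26, 23 and 12 rose in liver and 11, 10 and 3 in iBAT, where 5, 9 and 2 fell, with quantile scaling 11, 6 and 6 in liver and 2, 5 and 1 in iBAT, and after rescaling 10, 13 and 11 in liver and 3, 3 and 2 in iBAT. The number lower in iBAT was 16 to 22 for complex I, 18 to 22 for complexes II to V and 5 to 8 for the mitochondrial genome under the other scalings. Ndufb3, a complex I subunit, was 444.7, 454.2, 454.1, 479.2 and 427.4 in WT and 420.7, 353.1, 374.4, 400.4 and 378.6 in LFABP-/- iBAT, and 115.0, 95.8, 109.9, 100.7 and 91.9 in WT and 137.9, 134.6, 134.3, 179.7 and 166.8 in LFABP-/- liver. The genotypes did not overlap in either tissue, and it fell in iBAT (-0.23, adjusted p = 0.00987) and rose in liver (0.55, adjusted p = 0.0144), with a difference of -0.78 ± 0.12 (SE, limma, adjusted p = 0.00182).

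Other subunits had smaller opposite effects. Atp5k of the ATP synthase had -0.35 and 0.27, both called, and Cox6c of cytochrome oxidase fell in iBAT by 0.35 and had 0.22 in liver (adjusted p = 0.205). Ndufa1, Ndufa4 and Atp5j fell in iBAT by 0.49, 0.26 and 0.43, with liver effects of 0.07, 0.17 and 0.11 that were not called. Of the mitochondrial genome, mt-Cytb and mt-Co3 fell in iBAT by 0.51 and 0.41 and rose in liver by 0.50 and 0.42, with differences that were not called after quantile scaling, and mt-Nd6 rose in liver by 0.66 and had 0.06 in iBAT (adjusted p = 0.457). The liver call of Atp5k was lost on leaving out WT replicates 2 or 3 or LFABP-/- replicates 3, 4 or 5 (adjusted p from 0.122 to 0.174). The share of mitochondrial transcripts, higher in LFABP-/- than in WT liver (16.94% to 18.09% against 12.12% to 15.1%), moved with the liver values. Its part was not tested beyond the rescaling that leaves out mitochondrial genes. After that rescaling 10 genes of complex I, 13 of complexes II to V and 11 of the mitochondrial genome rose in liver.

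Of 14 genes of brown fat identity and thermogenesis with a mean of at least 1 in both tissues, 6 rose and 1 fell in iBAT, and 2 rose and 1 fell in liver. Ppargc1a, the coactivator of mitochondrial biogenesis, was 17, 15.2, 10.5, 18.1 and 12.6 in WT and 67.9, 101.8, 40.6, 34.2 and 35.5 in LFABP-/- iBAT, and 3.5 to 5.9 in WT and 4.2 to 8.8 in LFABP-/- liver. The iBAT groups did not overlap, and the difference was 1.55 ± 0.23 (SE, limma, adjusted p = 0.00184). Ucp1 rose in iBAT by 0.50 (adjusted p = 0.00254). The nuclear receptor gene Esrrg rose in liver by 1.24 and had -0.12 in iBAT (adjusted p = 0.478). Its liver means were 0.44 in WT and 1.68 in LFABP-/- mice, so it passed the filter in liver through the LFABP-/- libraries. The direction of Esrrg in liver is therefore partly set by entry. The glycerol kinase gene Gk rose in iBAT by 0.39 and had -0.23 in liver (adjusted p = 0.163). The iBAT call of Gk was lost on leaving out WT replicates 3 or 4 or LFABP-/- replicates 1 or 2 (adjusted p from 0.135 to 0.159).

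Of 26 genes of insulin signalling tested, 12 had opposite signs together with a called difference, beside 21.1% of all genes. The difference was higher in iBAT for 13 and lower for 2, 10 rose and 4 fell in iBAT, and 1 rose and 9 fell in liver, which became 4, 5 and 7 lower in liver under the other scalings. In iBAT 7 rose and 5 fell with liver transcripts subtracted. Mtor, the kinase that couples insulin and amino acids to growth, was 41.1, 47.3, 34.4, 33.4 and 35.9 in WT and 55.2, 53.7, 45.7, 45.6 and 43.0 in LFABP-/- iBAT. The liver libraries gave 15.5, 20.4, 13.9, 11.4 and 14.6 in WT and 10.2, 11.9, 10.1, 8.7 and 7.5 in LFABP-/- mice. The groups overlapped in both tissues by the extreme values, and Mtor rose in iBAT (0.34, adjusted p = 0.0275) and fell in liver (-0.61, adjusted p = 0.0319), with a difference of 0.95 ± 0.10 (SE, limma, adjusted p = 0.000401). Deptor, an inhibitor of mTOR, rose in iBAT by 0.76 and had -0.22 in liver (adjusted p = 0.139).

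Breakdown of branched chain amino acids held 8 of 19 genes with a lower effect in iBAT and none with a higher, as 3 rose and 8 fell in iBAT and 3 rose and 1 fell in liver. Under the other scalings 6 or 7 rose in liver. Ppm1k, the phosphatase that activates the branched chain ketoacid dehydrogenase, fell in iBAT by 1.08 and had -0.23 in liver (adjusted p = 0.47). The carboxylase subunit genes Pccb and Mccc1 fell in iBAT by 0.30 and 0.25, while in liver Pccb rose by 0.27 and Mccc1 had 0.08 (adjusted p = 0.599). The liver call of Pccb was lost without any single library other than WT replicates 1 and 4 and LFABP-/- replicate 2 (adjusted p from 0.11 to 0.166).

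Protein turnover and synthesis genes moved by small amounts. Of 31 proteasome subunits, 23 rose in iBAT and none fell, none was called in liver, and the difference was higher in iBAT for 8. Under the other scalings 6, 10 and 17 rose in liver. Psmb5, a catalytic subunit, rose in iBAT by 0.82 with a liver effect of 0.18 (adjusted p = 0.297), and Psmd12 and Psmd3 of the regulatory particle rose by 0.35 and 0.31. Of 69 cytosolic ribosomal proteins 1 rose and 28 fell in iBAT and none was called in liver, and of 59 mitochondrial ribosomal proteins 30 rose and 6 fell in iBAT and 6 rose and 1 fell in liver. The number of cytosolic ribosomal proteins that fell in iBAT was 16 with median-ratio scaling, 49 with quantile scaling and 40 after rescaling, where 25.5% of all genes fell without other scaling. The number of mitochondrial ribosomal proteins that rose in liver was 25, 21 and 12 under these scalings. The difference was lower in iBAT for 4 cytosolic ribosomal proteins, and for 22, 15 and 13 under them. Of 34 lysosomal genes 6 rose and 4 fell in iBAT and 4 fell in liver, and in iBAT 5 rose and 6 fell with liver transcripts subtracted, 5 and 7 with quantile scaling and 4 and 5 after rescaling.

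Genes of plasma proteins and liver metabolism rose in iBAT with the liver transcripts. Of 18 genes of the acute phase and coagulation, 13 rose and 1 fell in iBAT, of 19 cytochrome P450 genes 12 and 3, and of 5 urea cycle genes 4 and none, and in liver 1 and 2, 1 and 2, and 1 and none of them rose and fell. These lists held 26, 32 and 9 symbols, and the rest did not pass the filter. Some members passed through the LFABP-/- libraries, as Cps1 did with iBAT means of 0.36 in WT and 11.34 in LFABP-/- mice. The counts that rose in iBAT are therefore partly set by entry. With liver transcripts subtracted the iBAT counts that rose and fell were 4 and 2 for the acute phase and coagulation, 2 and 4 for the cytochrome P450 genes and 1 and 2 for the urea cycle, so the last pair of lists turned. Hemopexin (Hpx), fetuin-A (Ahsg) and the urea cycle enzyme Cps1 rose in iBAT by 4.23, 4.32 and 3.44, at 1.09%, 1.0% and 0.974% of their level in LFABP-/- liver. With liver transcripts subtracted the iBAT effects were 2.50 (adjusted p = 0.0691), 1.37 (adjusted p = 0.205) and 0.44 (adjusted p = 0.222), and the difference of Ahsg was 1.85 (adjusted p = 0.154). In liver Ahsg fell by 0.48, a call lost on leaving out WT replicates 2 or 5 or LFABP-/- replicates 1, 3, 4 or 5 (adjusted p from 0.103 to 0.179). Of the 315 tested genes whose iBAT level was under 5% of that in liver, 218 had a called difference, 121 of these with opposite signs, and 16 moved together. Over all genes these shares were 29.9%, 21.1% and 7.00%.

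Of 20 complement genes, many of which liver secretes, 5 rose and 3 fell in iBAT and 1 rose and 8 fell in liver, and the difference was called higher in iBAT for 5 and lower for 3. With median-ratio scaling 3 fell in liver, and with liver transcripts subtracted 2 rose and 8 fell in iBAT. The subtraction also turned the counts of ketogenesis and PPARα targets, from 8 that rose and 4 that fell in iBAT to 2 and 6, and of gluconeogenesis and glycogen, from 4 and 1 to 1 and 3. Of 27 NRF2 and glutathione genes 11 rose and 7 fell in iBAT, 9 and 9 with the subtraction, and 9 and 10 with quantile scaling and after rescaling.

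Interferon-induced and antigen presentation genes gave few calls. Of 29 interferon-induced genes 1 fell in iBAT, 2 fell in liver and none had a called difference by limma, with medians of -0.11 and -0.44, and of 18 genes of antigen presentation 2 fell in iBAT. Of 15 heat shock genes, 2 rose and 3 fell in iBAT and 4 rose in liver, and with median-ratio scaling 4 rose and 2 fell in iBAT. The remaining lists, which cover triglyceride synthesis, lipid droplets, lipolysis, sterol export, ketogenesis, the citric acid cycle, glycolysis, gluconeogenesis, NRF2 targets, growth arrest, cell cycle and matrix, had medians between -0.21 and 0.33 in iBAT and between -0.42 and 0.18 in liver. Among markers of other cell types, 1 of 8 genes of macrophages, 5 of 11 of endothelium, 5 of 9 of fibroblasts and 1 of 6 of erythroid cells fell in iBAT, none rose, and none of these was called in liver. Of all genes 25.5% fell in iBAT, and the macrophage and erythroid counts lie below that share. In liver 16 macrophage and Kupffer markers summed to between 309.5 and 1281 in WT and between 333.3 and 542 in LFABP-/- mice. Of 6 brown adipocyte markers 3 rose and 1 fell in iBAT and none was called in liver, and of 3 skeletal muscle markers none was called in either. Markers of lymphocytes, bile duct and Schwann cells did not reach a mean of 1 in both tissues.

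**Figure D5:**
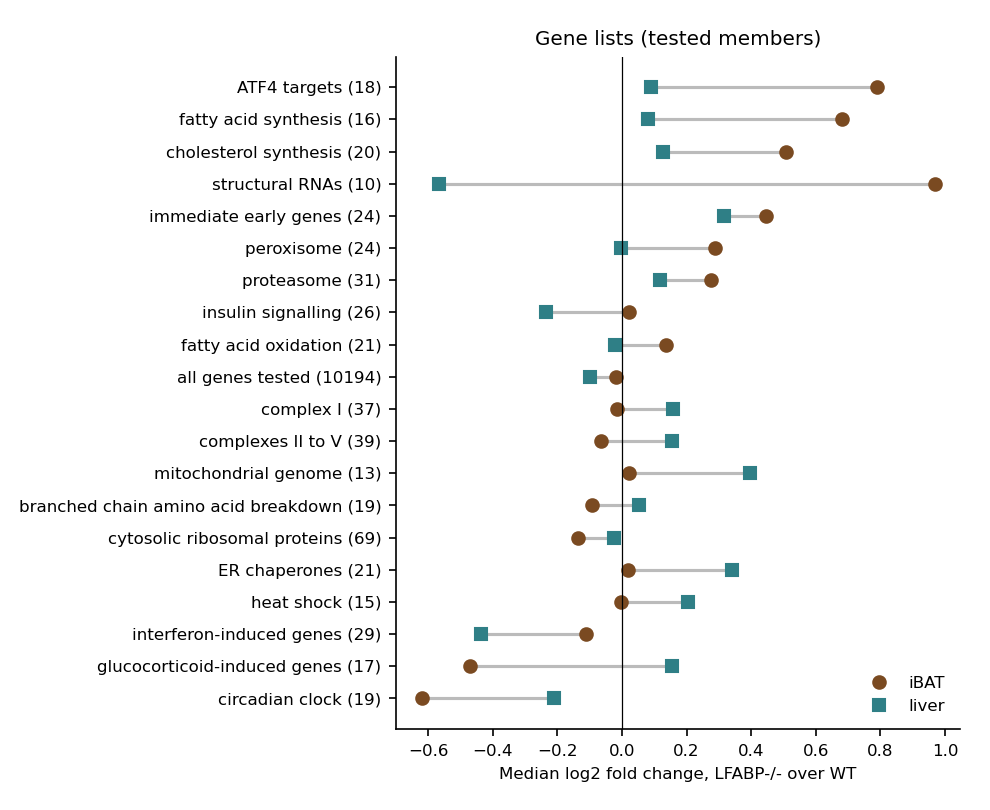
Median log2 fold change (LFABP-/- relative to WT) over the tested members of 19 gene lists and over all genes, in iBAT and in liver. ATF4 targets (0.79 and 0.09) and structural RNAs (0.97 and -0.57) lie higher in iBAT, while clock genes (-0.62 and -0.21) and glucocorticoid-induced genes (-0.47 and 0.16) lie lower in iBAT.

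The iWAT libraries of the same mice, which the choice of genes did not use, were examined for the same genes. LFABP-/- iWAT replicate 1 had Fabp1 at 196.1, Ahsg at 133.7 and Serpina1e at 137.8, far above every other iWAT library. Ucp1 was 962.3 in LFABP-/- iWAT replicate 2, also far above every other iWAT library. The part of liver and brown fat transcripts in the iWAT signs and calls below was not tested. Of the 705 genes moving together that were tested in iWAT, 517 (73.3%) had the same sign there, beside 58.8% of all 10114 genes that had their iBAT sign. The 705 were chosen by calls of the same sign in iBAT and liver and the 10114 were not, so these shares are of unlike genes. In iWAT, 15 of the 705 (2.13%) were called in the same direction and none in the other, beside 144 of all genes (1.42%), and Wdfy1 (1.36, adjusted p = 0.00327), Nnt (1.11, adjusted p = 0.0162) and Lgals4 (-1.14, adjusted p = 0.0144) were among the 15. Of 2124 opposite genes tested in iWAT, 1317 had the sign of iBAT and 807 that of liver, a split near that of all genes, of which 5951 of 10114 (58.8%) had their iBAT sign. Of the genes tested, 144 (1.41%) lay within 20 Mb of Fabp1, as did 11 of the genes moving together (1.54%) and 40 of the called differences (1.31%).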

How the data were processed

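RNA from iBAT and liver of 5 WT and 5 LFABP-/- mice was compared, and iWAT was used for counts of direction. Per the labels, poly(A) RNA was selected and sequenced as single reads, and the authors mapped it in CLC Genomics Workbench to GRCm38 with Ensembl release 92. The deposited values are named RPKM but sum to nearly the same total in every library, so they are on the TPM scale. The number of reads is unknown, so the error is the spread between mice, which is all that the p-values measure.

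Genes with a mean of at least 1 in both tissues entered limma 3.58.1 (R 4.3.3) as log2(value + 0.5), with lmFit and eBayes with intensity trend, two-sided, with Benjamini-Hochberg adjustment. The mean was over both genotypes. Wwc1, Acot12, Cldn1, Rhod, Fgf21, Igfbp2, Mup21, Acox2 and Cps1 had WT iBAT means below 1 and passed through the LFABP-/- libraries. Esrrg had a WT liver mean below 1 and passed in liver through the LFABP-/- libraries. The difference of effects was the tissue by genotype term with the mouse as a fixed block, because the same animal gave both tissues, and each tissue was also fitted alone. Deviations of iBAT and liver from their group means correlated between -0.0484 and 0.225 within a mouse, and 8 of 10 iBAT libraries correlated best with the liver of the same mouse. For single values a two-sided exact permutation test over the mice was run, with a smallest p of 0.0079. Fold changes on this scale understate those of low genes.

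Named genes were Fabp1 and Nnt, the 8 genes per direction with the largest smaller effect among opposite and among shared calls, the 6 per tissue with the smallest p of the difference among genes called there with an effect in the other tissue under 1/3 of it in size, called or not (all with a group mean of at least 10), and up to 3 members per list. Some genes that meet these rules are not reported here. The members and the 53 lists were chosen with earlier results of these data known. Of 1087 symbols in the lists 3 were not found. Chromosome positions came from GENCODE M21, which held 41474 of 41549 identifiers, and promoters from RefSeq GRCm38.p6, with a promoter for 18 of 21 ER chaperones, 22 of 24 ATF4 targets and 17 of 21 clock genes. Alternatives covered pseudocount, filter, scaling, trend, weights, block, name prefix, threshold, leaving out single mice and, chosen after seeing the data, subtraction of liver transcripts and removal of genes restricted to 1 tissue. The procedure was tested on simulated data. Python 3.11.15, pandas 2.3.3, NumPy 2.4.6, matplotlib 3.10.9 and statmod 1.5.0 were also used.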

Additional observations from a re-analysis of the deposited data

Results flagged for a closer look

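The genotype effect differed between iBAT and liver for 3049 genes, by a test of the difference itself. The values in parentheses are the effect in iBAT minus the effect in liver on the log2 scale, for the named genes among them.

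Of regulators and hormones, the difference was positive for Osgin1 (2.82), Fgf21 (5.29), Mthfd2 (3.15), Atf4 (1.45), Nfil3 (1.76), Ppargc1a (1.55), Ppara (1.12), Mtor (0.95) and Deptor (0.98), and negative for Klf10 (-1.71), Klf15 (-2.25), Klf9 (-0.81), Pik3r1 (-1.27), Per3 (-1.58), Ciart (-1.3), Bhlhe40 (-1.6), Fcor (-1.52) and Esrrg (-1.36). Of genes of lipid handling it was positive for Fabp1 (13.22), Fabp5 (2.15), Scd1 (1.18), Scd2 (2.98), Fads2 (1.99), Hsd17b7 (0.59), Nsdhl (0.67), Cpt1a (1.09), Slc25a20 (0.44), Acot12 (2.56), Acox2 (1.75) and Gk (0.62), and negative for Aacs (-1.73) and Pex2 (-0.61). Of genes of oxidative phosphorylation and its assembly and of amino acid breakdown, it was negative for Ndufa1 (-0.56), Ndufa4 (-0.43), Ndufb3 (-0.78), Atp5j (-0.54), Atp5k (-0.63), Cox6c (-0.57), Sco2 (-1.17), mt-Nd6 (-0.6), mt-Co3 (-0.83), mt-Cytb (-1.01), Mccc1 (-0.32), Pccb (-0.56) and Ppm1k (-0.85). Of genes of secreted liver proteins and the urea cycle it was positive for Serpina1e (4.88), Igfbp2 (3.06), Mup21 (1.69), Hpx (4.59), Ahsg (4.8) and Cps1 (3.79), with the liver transcripts in the iBAT libraries labelled LFABP-/-. Of structural RNAs it was positive for Rn7s2 (2.85), Rn7sk (2.28) and mt-Tm (2.97). Of genes on the list of ER chaperones it was negative for Hsp90b1 (-0.56), Pdia4 (-0.65) and Creld2 (-0.91) and positive for Atf6 (0.45). Further positive differences were those of Wwc1 (3.45), Cldn1 (3.27), Rhod (2.45), Usp10 (1.3), Akirin1 (1.39), Myo18a (1.01), Ubr4 (0.68), Papss1 (0.98), Psmb5 (0.65), Psmd12 (0.38), Psmd3 (0.37), Entpd4 (0.4) and Ide (0.46), and further negative ones those of Car3 (-3.48), Cfd (-4.22), Pnldc1 (-2.04), Thbd (-1.0), Lgals4 (-0.64) and Fbxo31 (-1.12).

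In 14 of 368 groups of 5 libraries examined, 1 library lay far from the other 4 by Dixon's criterion, and chance alone marks about 1 in 20 groups. In WT iBAT these were Fabp5 in replicate 4 (13.2), Serpina1e in replicate 5 (7.4), Rn7s2 in replicate 5 (73.0), Zbtb11os1 in replicate 2 (23.9), Creld2 in replicate 2 (12.4) and mt-Co3 in replicate 5 (57408.9). In LFABP-/- iBAT they were Klf10 in replicate 3 (9.2) and Fgf21 in replicate 2 (59.4). In WT liver replicate 3 they were Fabp1 (9165.5) and Aacs (39.3). In LFABP-/- liver they were Cdkn2c in replicate 5 (1.9), Zbtb11os1 in replicate 4 (10), Gk in replicate 5 (24.3) and Cps1 in replicate 4 (838.6).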

How the results depend on the processing

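With a mean of at least 10 in both tissues, which tests fewer genes (3861), the called differences numbered 1260, the opposite genes 917, the genes moving together 263, the iBAT calls 1903, the liver calls 781 and the averaged calls 1405. At an adjusted p under 0.05, 344 genes moved together and 983 were called in liver. Leaving out 1 mouse, with its iBAT and its liver library, gave 2441 to 3060 called differences, 1730 to 2197 opposite genes, 298 to 713 genes moving together, 4462 to 5306 iBAT calls, 748 to 2049 liver calls and 3422 to 4180 averaged calls, with the lowest counts of shared and liver calls without WT replicate 2. The split of direction in liver changed most clearly without WT replicate 5. The liver calls were then 499 higher and 1273 lower, the genes moving together 222 higher and 491 lower, and the median liver effect -0.044.

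The mouse block pairs the tissues of an animal and no WT with a LFABP-/- mouse. Without the replicate block the called differences numbered 3112, and with a random replicate block 3340. They numbered 3511 with the name prefix as a term, 3672 with library weights, 3681 with no filter and 2813 without genes restricted to 1 tissue. The library names used here start with 1 of 2 prefixes, each held by mice of both genotypes, and what the prefixes stand for is unknown. Within both name prefixes, the sign was kept by 3048 of 3049 differences, 712 of 714 genes moving together and 1524 of 2150 opposite genes. These genes were chosen by calls on the same libraries, so this agreement was largely fixed in advance and is no separate support.

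Some differences of single genes changed sign, and of these Mup21 was the 1 called at first, at -0.479 with liver transcripts subtracted. Library weights gave -0.0599 for Acly and -0.0242 for Acot1, and a pseudocount of 0.1 gave 0.0105 for Cdkn2c. Zbtb11os1 came to -0.0415 with median-ratio scaling, -0.111 with quantile scaling and -0.0457 with rescaling. Leaving out 1 mouse gave -0.514 to 0.0781 for Nnt, -0.0865 to 0.506 for Acly, -0.104 to 0.361 for Acot1, -0.288 to 0.148 for Cdkn2c and -0.0678 to 0.0886 for Zbtb11os1. The cause was not tested. Over 92 genes and all alternatives, 2161 values kept direction and call, 51 lost the call, 15 gained it and 16 changed sign. Unknown depth sets the limit for genes near a value of 1, where the rounding to 1 decimal is coarse.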
